A study of Mus musculus with 54 samples.

Results

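The promoters of the cytoplasmic ribosomal protein (RP) genes were examined for peaks of the DNA-binding protein CTCF and of the cohesin subunits Rad21 and Smc3. The members were the protein-coding genes whose symbol is Rpl or Rps with a number and an optional letter, together with Rplp0, Rplp1, Rplp2 and Rpsa, without the Rps6k kinase genes and without pseudogenes. This rule gave 80 of the 21938 protein-coding genes of the mouse annotation (GENCODE M21, build mm10), 49 of the large and 31 of the small ribosomal subunit. A promoter was counted as called in a library when a peak summit, the base of highest pileup in a peak, lay within 1 kb of the gene's start site. The remaining 21858 coding promoters served as the comparison.

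Ribosomal proteins assemble with ribosomal RNA into the 2 subunits of the ribosome, and most of their genes are transcribed at high level in every growing cell from short promoters whose messages begin with a terminal oligopyrimidine (TOP) tract. CTCF binds DNA through an array of zinc fingers that read a long, directional motif, and it halts the cohesin ring, so that pairs of CTCF sites anchor chromatin loops. Rad21 closes the ring and Smc3 forms one of its arms.

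The study asked how a CTCF that lacks its RNA-contacting zinc finger 1 (ΔZF1) occupies chromatin in embryonic stem cells (ESCs) and in neural progenitor cells (NPCs). The rescue lines were derived from E14 mouse ESCs with an AID2 degron on endogenous CTCF and a doxycycline-inducible ΔZF1 or wild-type (WT) CTCF, and all 4 rescue groups (NPC-ΔZF1, NPC-WT, ESC-ΔZF1 and ESC-WT) received 1 µM 5-Ph-IAA and 1 µg/mL doxycycline for 24 hours. NPCs were made by 2 days of differentiation in N2B27 medium. A second set compared the Podxl_pA and Grb10_pA lines, in which an inserted polyadenylation signal truncates an RNA, with unmodified E14, all as NPCs and with no degron treatment in their labels. CTCF was mapped in 4 libraries of each rescue group and in 2 of each of the Podxl_pA, Grb10_pA and E14 lines (22 libraries), Smc3 in 2 libraries of all 7 groups (14 libraries), and Rad21 in 2 libraries of each rescue group (8 libraries). Peak lists hold no expression values, so cell identity could not be checked against marker genes here. The study describes its replicates as biological, while the labels do not say which libraries came from separate cultures, and the p-values measure the spread between these libraries.

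The lists held 5755 to 45941 peaks for CTCF, 8169 to 34104 for Smc3 and 1306 to 10415 for Rad21. Relative depth, read from the lowest background rate in a list, in the CTCF rescue lists was 1.14 to 2.39 fragments per bp for replicates 1 and 4 (the deep class) and 0.392 to 0.905 for replicates 2 and 3 (the shallow class). Values within these 2 depth classes are given beside pooled ones. The peak names inside the replicate 4 CTCF lists carry the number of replicate 2, so whether replicate 4 is a separate library was not settled. The smallest CTCF list, NPC-ΔZF1 replicate 3 with 5755 peaks, is named wherever a result rests on it.

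CTCF peaks recurred at a minority of RP promoters. At least 1 CTCF library called 53 of the 80 RP promoters (66.2%), against 48.1% both of the other coding promoters and of all coding promoters. A recurrent peak, in at least 19 of 22 libraries, lay at 15 RP promoters (18.8%), against 5.49% of the other coding promoters and 5.54% of all. All 22 libraries called 5 RP promoters (6.25%) and 2.10% of the other coding promoters. No RP promoter was called in 17 or 18 libraries. The next one below the recurrent set was Rpl27 with 16 libraries, and the last one inside it was Rpl23a with 19. Below that, 6 RP promoters (7.5%) were called in 10 to 16 libraries and 11 (13.8%) in 5 to 9, near the 7.21% and 11.98% of the other coding promoters. Another 21 (26.2%) were called in 1 to 4 libraries, and 27 (33.8%) in none, against 21.8% and 51.9% of the other coding promoters. A low share with no call was not particular to RP promoters. It was 35.9% of 78 mitochondrial RP promoters and 31.6% of 19 promoters of highly expressed genes outside the ribosome. With every list reduced to equal peak numbers, 6 RP promoters and 455 others were recurrent, and other settings gave 10 to 15 RP promoters and 893 to 1468 others.

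**Figure D1:**
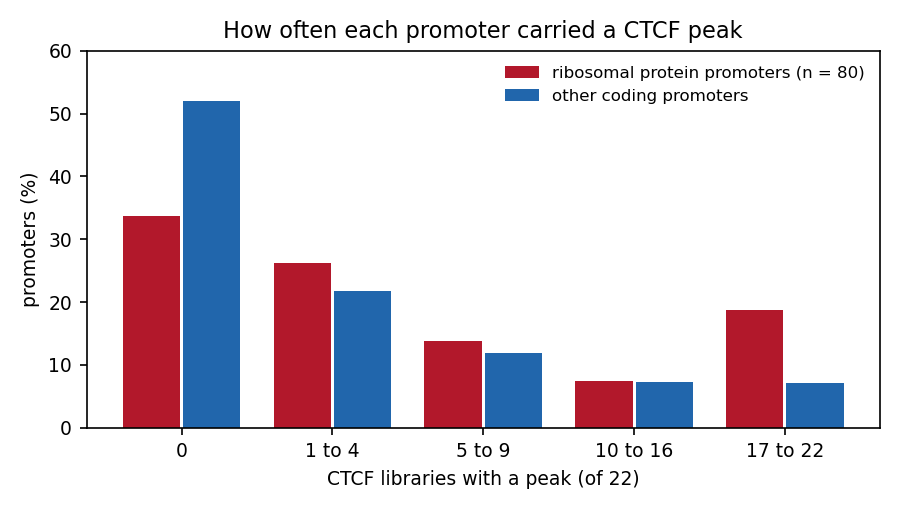
Percentage of promoters (vertical axis) by the number of the 22 CTCF libraries with a peak within 1 kb of the start (horizontal axis), for the 80 RP promoters (red) and the 21858 other coding promoters (blue). In the rightmost class 18.8% of RP promoters stand against 7.12% of the others, and in the leftmost 33.8% stand against 51.9%.

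The recurrent set held 12 of the 49 large-subunit genes and 3 of the 31 small-subunit genes. The median large-subunit promoter was called in 4 libraries and the median small-subunit promoter in 1, with 15 large-subunit and 12 small-subunit promoters in none. The recurrent set included genes for several functional parts of the ribosome. Rplp0 is the base of the stalk that recruits translation factors, Rpl10a forms the mobile L1 stalk, Rpl3 lies near the peptidyl transferase centre, and Rpl5 and Rpl11 join the ribosome together with 5S RNA and, when unassembled, bind the p53 regulator Mdm2.

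The CTCF core motif, a consensus of 14 bases searched on both strands with at most 2 mismatches within 50 bp of the median summit, was present at 13 of the 15 recurrent RP promoters (86.7%), against 859 of the 1201 other recurrent coding promoters (71.5%). With at most 1 mismatch the shares were 33.3% and 38.6%. Of the 38 RP promoters called in 1 to 16 libraries, 8 held the motif (21.1%), against 20.0% of other promoters in that class. In windows of the same length centred on the start site it was present at 2 of 80 RP promoters (2.5%), at none of the 27 RP promoters without a CTCF call, and at 5.70% of all coding promoters. The following windows are shown because each motif lies under a recurrent summit. They are given 5′ to 3′ on the motif's strand from the GRCm38 (mm10) genome, with the 14 motif bases in capitals, for the recurrent genes that are also in the RefSeq promoter table (60 of the 80 RP symbols matched it).
Rplp0, chr5:115559282-115559311, plus strand, 0 mismatches: gctccgacCCAGCAGAGGGCAGcaggtctg
Rpl38, chr11:114668450-114668479, plus strand, 1 mismatch: aatctgaaCCAGAAGAGGGCAGggctgctg
Rpl5, chr5:107900457-107900486, plus strand, 2 mismatches: tcctcctaCCGGCAGGGGGCGAtagcccgc
Rpl11, chr4:136053472-136053501, minus strand, 2 mismatches: aggacagtCCACTAGAGGTGGCagcgccac
Rpl26, chr11:68901457-68901486, plus strand, 2 mismatches: cctccgagCCGCTAGATGTCGCtaaactcc
Rps24, chr14:24487118-24487147, minus strand, 2 mismatches: tgaaggagCCGCTAGATGGCGAtctagaag
Rpl37, chr15:5116334-5116363, minus strand, 2 mismatches: tcagacacCCAGTGCGTGGCGGcgcccctg

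Of the 13 motifs, 10 ran along the strand of the gene and 10 lay upstream of the start, and their centres were a median of 8 bp and at most 22 bp from the summit. The exceptions to the gene's strand included Rpl37 and Rps24. Rpl10a and Rpl36a were called in 21 of 22 libraries without such a match. The absence of a match says only that these letters were not in the window.

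The upstream region of Rplp0 is shown because its CTCF peak had the highest mean percentile among RP promoters (99.2), with the motif in capitals. It is the 250 bases before the start (chr5:115559217-115559466, plus strand, RefSeq on GRCm38.p6).
Rplp0 upstream: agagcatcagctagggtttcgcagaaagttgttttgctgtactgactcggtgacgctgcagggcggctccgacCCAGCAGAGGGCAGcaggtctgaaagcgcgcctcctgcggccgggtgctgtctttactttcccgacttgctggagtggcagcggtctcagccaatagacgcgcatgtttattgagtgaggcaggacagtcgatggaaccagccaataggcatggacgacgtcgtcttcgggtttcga

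Peaks are described by fold enrichment, the ratio of ChIP pileup to local background at the summit, and by percentile, the rank of that fold among the peaks of the same list. The peak of Rplp0 (ENSMUSG00000067274.10, chr5:115559467-115563727, plus strand), with a median summit 148 bp upstream of the start, had fold enrichments of 31.4, 44.7, 29.3 and 59.1 in NPC-ΔZF1 and 55.4, 101, 90.8 and 65.0 in NPC-WT (replicates 1 to 4). In ESC-ΔZF1 they were 121, 72.0, 50.9 and 49.8, against 154, 79.6, 50.9 and 50.4 in ESC-WT. Podxl_pA gave 66.9 and 56.2, Grb10_pA 68.3 and 75.5, and E14 51.9 and 74.5. Its percentile lay between 98.1 and 99.8 in all 22 libraries, so in each list it was among the strongest peaks, and the folds of the groups overlapped in each comparison, although 3 of the 4 NPC-ΔZF1 folds were below every NPC-WT fold. Folds of different lists depend on depth. The percentile removes their scale but still depends on the length of the list, so values between groups were tested only on ranks among shared promoters, as given further on.

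The other promoters called in all 22 libraries were weaker. Rps29 encodes a small zinc-binding protein of the small-subunit head, and its summit lay 560 bp upstream of the start (chromosome 12, 69157722 to 69159186, minus strand). Its percentiles were 89.2, 51.3, 49.2 and 94.8 in NPC-ΔZF1 and 98.6, 87.1, 97.1 and 92.5 in NPC-WT. In ESC-ΔZF1 they were 98.4, 67.4, 91.0 and 86.5, against 98.5, 81.6, 98.0 and 89.8 in ESC-WT. The groups overlapped in both cell types, and the 2 lowest values came from the 2 shortest lists, NPC-ΔZF1 replicates 2 and 3. Rps24 averaged the 60.9 percentile, with a summit 14 bp inside the gene on chromosome 14, outside the exons of its coding transcripts. The start of Polr3a, a subunit of RNA polymerase III, lies 67 bp upstream of the Rps24 start. The Rps24 peak therefore cannot be assigned to one of the 2 genes. Rpl37 averaged 51.1, with a summit 310 bp upstream on chromosome 15, and ranged between 7.08 and 95.7 among libraries.

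Among the 6 promoters called in 21 libraries, Rpl10a ranked highest, with a mean percentile of 93.5 and a summit 6 bp upstream of its start (chr17:28328471-28331033, plus strand). Rpl3 (mean percentile 90.0) had its summit 581 bp inside the gene, outside the exons of its coding transcripts. It lay nearer to the start of Syngr1, a synaptic vesicle gene that begins 534 bp from the Rpl3 start. That peak cannot be assigned to either gene alone. Rpl36 averaged 81.5 with a summit 73 bp upstream. Rpl38, the gene mutated in Tail short mice, averaged 64.1 with a summit 56 bp upstream, and the X-linked Rpl36a averaged 61.7 with a summit 82 bp upstream. NPC-ΔZF1 replicate 3 was the single library without a peak at Rpl10a, Rpl3, Rpl36 and Rpl36a, and Podxl_pA replicate 2 the one without a peak at Rpl38. Rpl5, Rpl26 and Rpl11 were called in 20 libraries and Rpl23a in 19, at mean percentiles of 67.3, 65.5, 48.0 and 48.0.

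**Figure D2:**
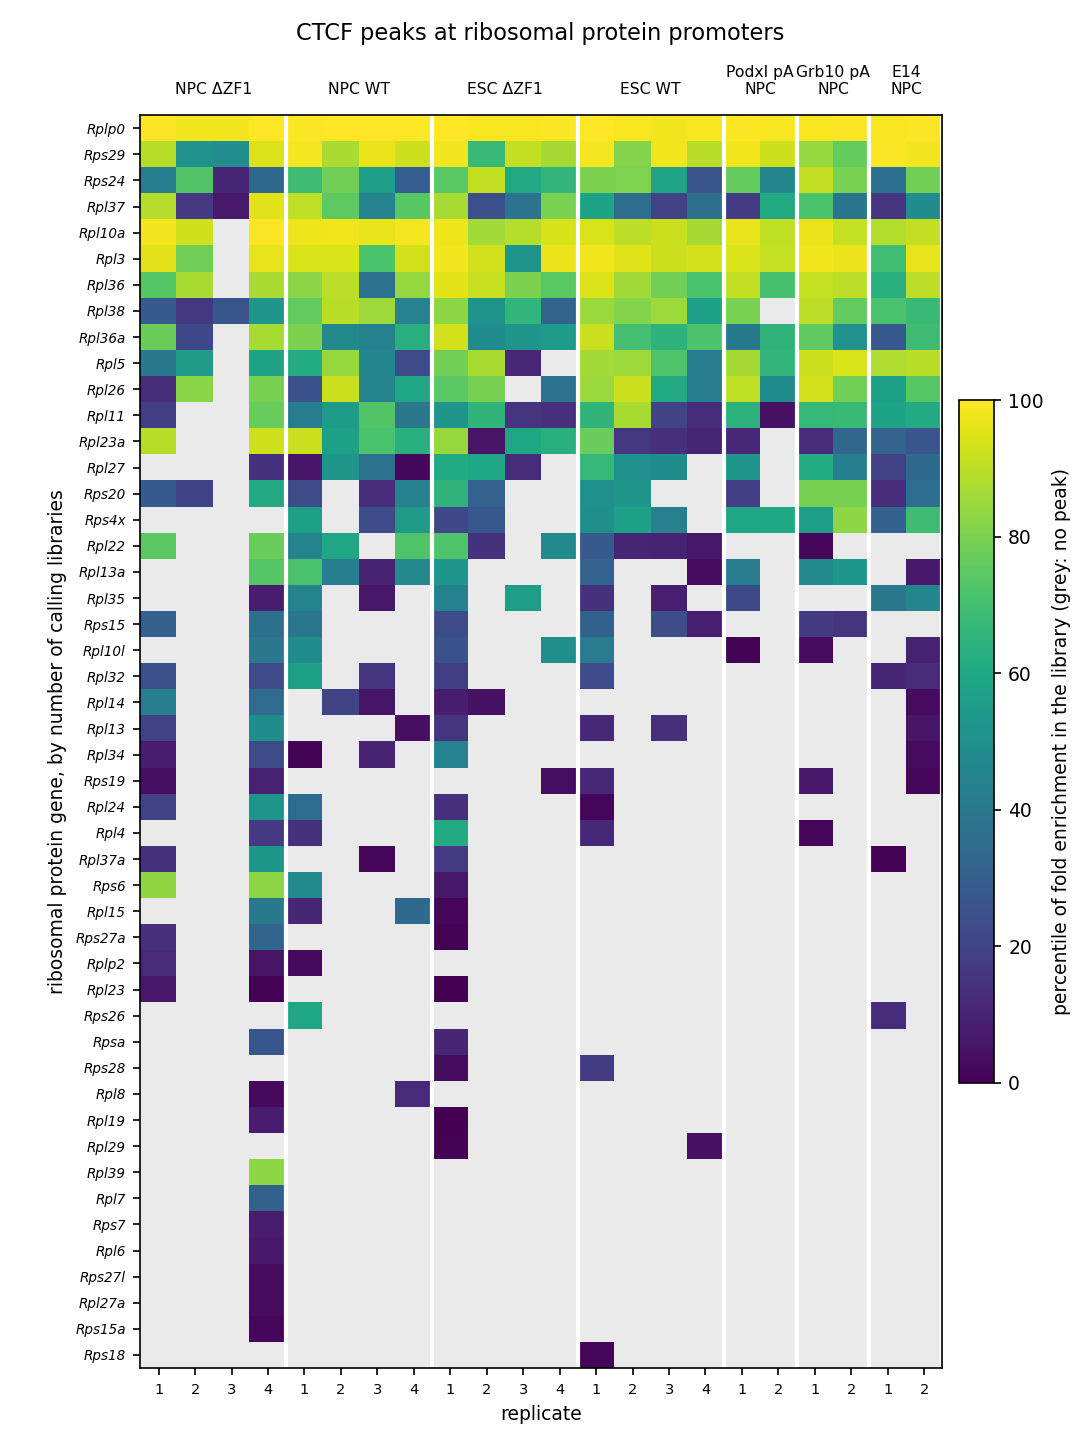
CTCF peaks at 48 of the 53 RP promoters called in at least 1 of 22 libraries. Rows are genes ordered by the number of calling libraries, columns are replicates within groups, colour is the percentile of fold enrichment within the library (0 to 100) and grey marks no peak. Rplp0 stays between 98.1 and 99.8 in every column, and the rows from Rps29 down to Rpl23a are filled in at least 19 columns.

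Summits at RP promoters lay mostly before the start. In the median CTCF library 79.97% of the RP peaks were upstream (31.0% to 90.9%), against 55.4% of peaks at other coding promoters (29.0% to 69.1%), and the median distance from the start was 146 bp against 238 bp. The lowest RP shares, 31.0% and 31.9%, came from NPC-ΔZF1 replicates 1 and 4, where the other coding promoters were at 29.0% and 29.97%.

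The remaining members were called in fewer libraries, mostly with weaker peaks. Rpl27 was called in 16 libraries, Rps20 in 15, the X-linked Rps4x in 14, Rpl22 in 13, Rpl13a in 12 and Rpl35 in 10, at mean percentiles between 29.0 and 49.3. Of the stalk proteins that bind Rplp0, Rplp1 was called in no library and Rplp2 in 3, at a mean percentile of 6.58. Rpsa, also known as the laminin receptor, was called in 2 libraries and the ubiquitin fusion gene Rps27a in 3. Among the paralogs, the testis-expressed Rpl10l was called in 8 libraries, with the summit 203 bp inside its coding exon and 7 to 22 fragments at the summit, Rps27l in 1, and Rpl39l and the muscle paralog Rpl3l in none. The 27 promoters without a call begin, by symbol, with Rpl10, Rpl12, Rpl17, Rpl18 and Rpl21. A single library, NPC-ΔZF1 replicate 4 with 58.8% of RP promoters called, gave the only peak at Rpl39, Rpl7, Rps7, Rpl6, Rps27l, Rpl27a and Rps15a.

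The percentage of RP promoters with a CTCF peak exceeded that of the other coding promoters in 21 of 22 libraries. The difference averaged 12.4 ± 5.54 percentage points (SD, n = 22) and the ratio 1.98 ± 0.580, between 0.945 and 3.24. In NPC-ΔZF1 the RP percentages were 36.2, 17.5, 7.5 and 58.8 in replicates 1 to 4, beside 26.2, 8.45, 3.66 and 42.6 for the other promoters. NPC-WT had 38.8, 25.0, 30.0 and 28.8, beside 25.3, 18.8, 13.2 and 23.5. The NPC-ΔZF1 libraries thus lay on both sides of the NPC-WT libraries, with replicates 2 and 3 lowest and replicate 4 highest. In ESC-ΔZF1 the RP percentages were 50.0, 25.0, 20.0 and 21.2, beside 32.0, 11.2, 9.17 and 22.5 for the others, and in ESC-WT 37.5, 23.8, 26.2 and 23.8, beside 23.4, 12.7, 10.3 and 13.0. ESC-ΔZF1 replicate 4 was the library in which RP promoters did not exceed the others. Podxl_pA had 27.5 and 17.5, beside 11.4 and 7.06, Grb10_pA 32.5 and 26.2, beside 15.9 and 11.2, and E14 27.5 and 33.8, beside 8.50 and 11.2. The RP peaks also had a higher median percentile of fold enrichment than peaks at other coding promoters in 18 of 22 CTCF libraries. Depth and the length of the lists moved with these percentages, and their part in them was not tested beyond the settings given here.

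**Figure D3:**
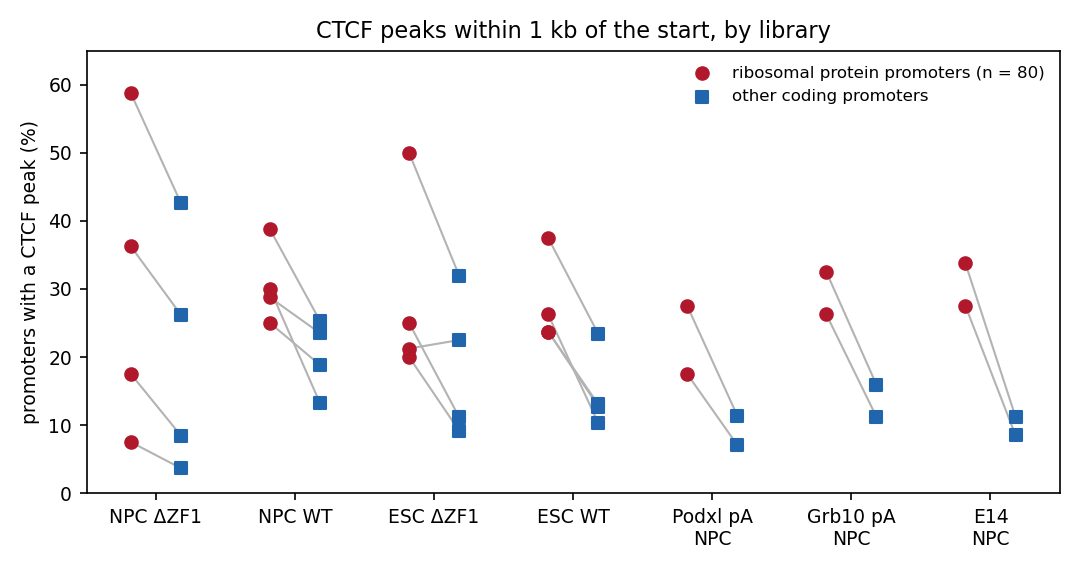
Percentage of promoters with a CTCF peak within 1 kb of the start (vertical axis) in each library, by group (horizontal axis), for RP promoters (red circles) and other coding promoters (blue squares), with a line joining the 2 values of a library. RP promoters lie above the others in 21 of 22 libraries, the exception being ESC-ΔZF1 replicate 4 with 21.2% and 22.5%.

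In ESCs, the question was whether these promoters were occupied by CTCF that lacks zinc finger 1. RP promoters were called at 29.1% ± 14.1 in ESC-ΔZF1 and 27.8% ± 6.56 in ESC-WT (SD, n = 4 each), a difference of 1.25 percentage points, beside 3.82 at the other coding promoters. It was 5.00 in the deep class and −2.50 in the shallow class, and −5.73 without ESC-ΔZF1 replicate 1, beside 8.99, −1.35 and −0.597 at the other coding promoters. All of these RP differences are smaller than the spread between replicates. Of the 19 RP promoters called in at least 3 of 4 ESC-WT libraries, 17 were also called in at least 3 of 4 ESC-ΔZF1 libraries (89.5%), beside 81.4% of all coding promoters. A promoter is said to have switched when all libraries of one group called it and no library of the other did. No RP promoter switched between ESC-ΔZF1 and ESC-WT, beside 0.0228% of all coding promoters. The largest losses of calls were Rps15, a protein needed in human cells for export of the small subunit, with 1 ESC-ΔZF1 and 3 ESC-WT libraries, and then Rpl5 and Rpl26 (3 and 4), Rps4x (2 and 3) and Rpl13a (1 and 2). Among the largest gains were Rpl14 (2 and 0), Rpl10l (2 and 1), and Rps6 and Rpl15 (1 and 0 each). Each of these was called in ESC-ΔZF1 replicate 1, the longest CTCF list with 45941 peaks, which gave the only ESC call at Rps6 and Rpl15.

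Relative enrichment was tested with limma over the promoters called in all 8 libraries compared, on the rank of their fold enrichment within each library turned into normal scores, whose unit is 1 SD. In ESCs 13 RP promoters could be tested and none passed at an adjusted p of 0.05, where 1 of 1179 promoters did (0.0848%, lower in ESC-ΔZF1, with 103 at an unadjusted p under 0.05). With the replicate number as a block 4 of 1179 passed, and without ESC-ΔZF1 replicate 2 37 promoters did, in both cases with no RP promoter among them. Of the 13, 7 ranked higher and 6 lower in ESC-ΔZF1, with a median of 0.11 beside −0.01 over all promoters tested. The smallest p-values were at Rpl37 (0.60 ± 0.23 SE, limma adjusted p = 0.497), Rpl38 (−0.59 ± 0.33, adjusted p = 0.655) and Rpl23a, a protein at the exit of the nascent peptide tunnel (0.52 ± 0.35, adjusted p = 0.724). The ranks of Rpl37 among the shared promoters were at percentiles 21.4, 9.75, 17.2 and 35.4 in ESC-ΔZF1 and 4.41, 8.06, 6.62 and 11.6 in ESC-WT, which overlap. Within same-numbered pairs of libraries Rpl37 ranked higher in ESC-ΔZF1 in 4 of 4, and Rpl38, Rps29 and Rpl11 lower in 4 of 4. With the replicate block the limma adjusted p was 0.170 for Rpl37, 0.163 for Rpl38 and 0.209 for Rps29.

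In NPCs, RP promoters were called at 30.0% ± 22.6 in NPC-ΔZF1 and 30.6% ± 5.82 in NPC-WT (SD, n = 4 each), a difference of −0.625 percentage points, beside 0.0194 at the other coding promoters. The depth classes went in opposite directions, with 13.8 in the deep class and −15.0 in the shallow class, beside 10.0009 and −9.96 at the other coding promoters. Without NPC-ΔZF1 replicate 4 the difference was −10.2, beside −7.44, and without NPC-ΔZF1 replicate 3 it was 6.88, beside 5.54. Of the 20 RP promoters called in at least 3 of 4 NPC-WT libraries, 14 were also called in at least 3 of 4 NPC-ΔZF1 libraries (70.0%), beside 43.5% of all coding promoters. Without NPC-ΔZF1 replicate 3, which asked for only 2 of 3 NPC-ΔZF1 libraries, these shares were 85.0% for RP promoters and 90.5% for other coding promoters, and at equal peak numbers 60% and 68.0%, so the order of RP and other promoters depended on these choices. No RP promoter switched (0.0273% of all coding promoters did) over the 4 replicates, while 6 did within the deep class (7.5%, beside 3.93% of the other coding promoters) and 5 within the shallow class (6.25%, beside 4.18%). Fewer NPC-ΔZF1 than NPC-WT libraries called Rps4x (0 and 3), Rpl13a and Rpl27 (1 and 4 each), and Rpl11 and Rpl23a (2 and 4 each). More NPC-ΔZF1 than NPC-WT libraries called Rps27a, Rps19 and Rpl23 (2 and 0 each), Rps6 (2 and 1) and Rpl39 (1 and 0). All NPC-ΔZF1 calls of these genes came from replicates 1 and 4, the deep class, and that of Rpl39 from replicate 4 alone. Rpl11 and Rpl23a lacked a peak in NPC-ΔZF1 replicates 2 and 3, the shortest CTCF lists. Rpl13a and Rpl27 kept one in NPC-ΔZF1 replicate 4 only. The part of depth and list length in these changes was not tested.

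The NPC test of relative enrichment held 6 RP promoters, all called in all 8 libraries, of 651 promoters. limma called none of the 651 (0.0%, with 35 at an unadjusted p under 0.05), and it also called none under any other setting run. The RP values were lower in NPC-ΔZF1 for 4 and higher for 2, with a median of −0.14 beside 0.00 over all promoters tested. Rpl38 differed by −0.74 ± 0.33 (SE, limma adjusted p = 0.800), Rps29 by −0.73 ± 0.41 (adjusted p = 0.856) and Rplp0 by −0.24 ± 0.19 (adjusted p = 0.895). The ranks of Rplp0 were at percentiles 92.3, 89.9, 94.6 and 94.3 in NPC-ΔZF1 and 94.5, 95.1, 96.3 and 96.5 in NPC-WT, where the lowest NPC-WT value lay just below 1 NPC-ΔZF1 value. Within same-numbered pairs Rplp0, Rpl38 and Rps29 each ranked lower in NPC-ΔZF1 in 4 of 4. With the replicate block the limma adjusted p was 0.558, 0.261 and 0.371 for these genes, so none passed.

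The comparison of NPC-WT with ESC-WT shows the same promoters in 2 cell types with intact CTCF. They were called at 30.6% ± 5.82 in NPC-WT and 27.8% ± 6.56 in ESC-WT (SD, n = 4 each), a difference of 2.81 percentage points, within the spread of both groups, beside 5.34 at the other coding promoters. It was 3.12 in the deep and 2.50 in the shallow class, beside 6.17 and 4.50. Of the 19 promoters called in at least 3 of 4 ESC-WT libraries 18 were also called in at least 3 of 4 NPC-WT libraries (94.7%), beside 90.9% of all coding promoters. None switched between the cell types (0.0638% of all coding promoters did). More NPC-WT than ESC-WT libraries called Rpl13a (4 and 2), Rpl15, Rpl14 and Rpl34 (2 and 0 each) and Rps6 (1 and 0). Fewer called Rps15 (1 and 3), Rpl22 (3 and 4), Rpl13 (1 and 2), and Rps28 and Rps19 (0 and 1 each). For ΔZF1 cells, 13 of 17 RP promoters called in at least 3 ESC-ΔZF1 libraries were also called in at least 3 NPC-ΔZF1 libraries (76.5%), beside 58.5% of all coding promoters, and none switched (0.0137%). These shares rest in part on NPC-ΔZF1 replicate 3, the smallest CTCF list. They were not recomputed without it or at equal peak numbers, so their order was not tested further.

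At Rpl10a the CTCF peak ranked higher in NPC-WT than in ESC-WT. Its ranks among the 1451 promoters called in all 8 libraries were at percentiles 88.4, 89.5, 87.7 and 93.7 in NPC-WT and 60.5, 60.3, 74.9 and 67.6 in ESC-WT. The 2 groups did not overlap. The normal score was higher by 0.87 ± 0.19 (SE, limma adjusted p = 0.042, n = 4 against 4), and adjusted p = 0.036 with the replicate number as a block. Over 16 other settings the difference kept its direction, at 0.71 to 0.92, with limma adjusted p between 0.015 and 0.457, and it passed in 5 of them. Of the runs without 1 library it passed without NPC-WT replicate 3 (limma adjusted p = 0.0385). The limma adjusted p was 0.0868, 0.0581 and 0.1302 without NPC-WT replicates 1, 2 and 4, and 0.142, 0.107, 0.0858 and 0.0581 without ESC-WT replicates 1 to 4. Among all promoters 52 of 1451 passed (3.58%, 39 higher and 13 lower in NPC-WT), and 112 did with the block. The count was 0 without NPC-WT replicate 1, NPC-WT replicate 4 or ESC-WT replicate 1, 8 and 14 without ESC-WT replicates 2 and 3, and 92 without NPC-WT replicate 3. Of the 15 RP promoters tested 4 ranked higher and 11 lower, with a median of −0.30 beside −0.06 over all promoters tested.

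No other RP promoter passed. Rpl36a was lower by −0.72 ± 0.26 (SE, limma adjusted p = 0.141), with percentiles of 35.1, 6.55, 16.3 and 21.5 in NPC-WT and 50.7, 33.4, 39.0 and 46.0 in ESC-WT, which overlap in 1 pair of libraries. Rpl37 was higher by 0.70 ± 0.27 (adjusted p = 0.161), with percentiles of 59.7, 24.4, 16.8 and 33.98 in NPC-WT and 8.89, 13.5, 11.4 and 17.02 in ESC-WT, which also overlap in 1 pair. In same-numbered pairs Rpl10a and Rpl37 ranked higher and Rpl36a lower in NPC-WT in 4 of 4, and with the replicate block the limma adjusted p was 0.0603 for Rpl36a and 0.133 for Rpl37.

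**Figure D4:**
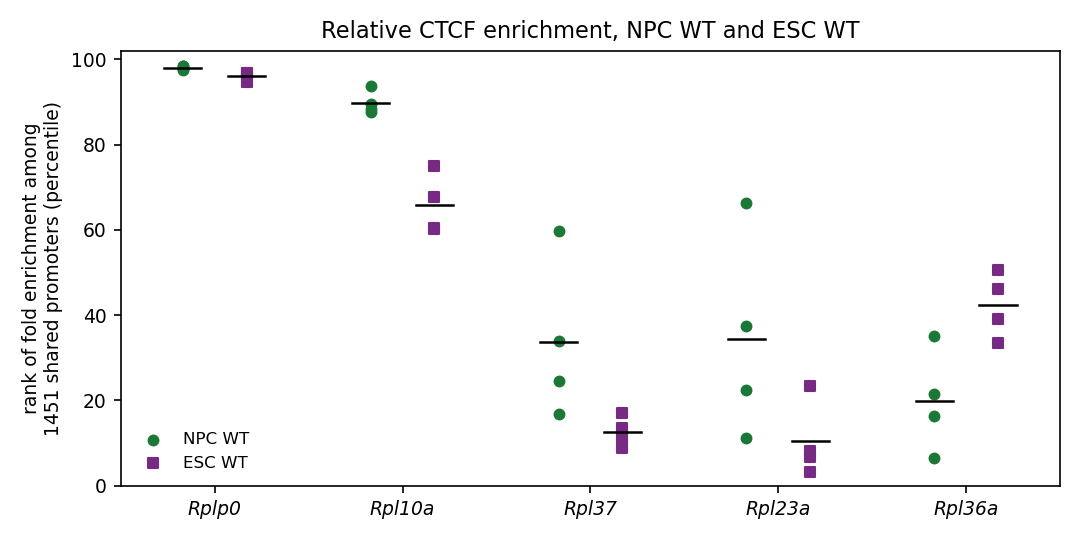
Rank of fold enrichment among the 1451 promoters called in all 8 libraries (percentile, vertical axis) for 5 RP genes (horizontal axis), in NPC-WT (green circles) and ESC-WT (purple squares). Points are libraries (n = 4 each) and horizontal lines are means. Rpl10a lies between 87.7 and 93.7 in NPC-WT and between 60.3 and 74.9 in ESC-WT, and it is the one RP promoter that passed the limma test.

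In the polyadenylation lines the groups held 2 libraries each, with no test. Podxl_pA called 22.5% ± 7.07 of RP promoters and E14 30.6% ± 4.42 (SD, n = 2 each), a difference of −8.12 percentage points, beside −0.640 at the other coding promoters. Podxl_pA replicate 2, a short list of 15505 peaks, called 17.5%. Podxl_pA replicate 1 called 27.5% with 28405 peaks, and the E14 replicates 27.5% and 33.8% with 25890 and 28805. The part of list length in this difference was not tested. Of the RP promoters 1 switched, Rpl32, which was called in neither Podxl_pA and both E14 libraries, beside 0.401% of all coding promoters. Grb10_pA called 29.4% ± 4.42 of RP promoters, a difference of −1.25 percentage points from E14, beside 3.71 at the other coding promoters. There 3 RP promoters switched, beside 1.4% of all coding promoters. Rps15 was called in both Grb10_pA libraries (folds 7.43 and 7.14, 18 and 10 fragments at the summit) and in neither E14 library. Neither Grb10_pA library called Rpl32 or Rpl35, against both E14 libraries for Rpl32 (folds 6.68 and 6.68, 18 and 15 fragments) and for Rpl35 (folds 9.55 and 10.2, 20 and 18 fragments). Rps15 and Rpl32 ranked low in their lists, at percentiles of 16.9 and 15.2 in Grb10_pA for Rps15 and of 10.4 and 11.97 in E14 for Rpl32. Both comparisons share the E14 libraries.

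Rad21 peaks were rare at these promoters. They lay at 0% to 3.75% of RP promoters per library, beside 0.741% to 3.08% of the other coding promoters, a difference from other coding promoters of −0.341 ± 0.925 percentage points (SD, n = 8). In any library 5 RP promoters had a Rad21 peak (6.25%), beside 5.02% of all coding promoters. Rpl10a was called in 4 of 8 Rad21 libraries, all of them NPC, with folds of 3.70 and 4.22 in NPC-ΔZF1 and 4.87 and 4.23 in NPC-WT. It was the RP promoter called in both NPC and in neither ESC library, among WT cells (0.433% of all coding promoters switched) and among ΔZF1 cells (0.752%). Between NPC-ΔZF1 and NPC-WT 1 of the 80 RP promoters switched for Rad21 (0.242% of all coding promoters). No RP promoter switched for Rad21 between ESC-ΔZF1 and ESC-WT (0.606%). Rpl9, Rps27a and Rpsa were called in 1 Rad21 library each.

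Smc3 peaks lay at 37.5% and 53.8% of RP promoters in NPC-ΔZF1 and at 27.5% and 17.5% in NPC-WT, beside 20.0% and 33.1%, and 13.7% and 9.25%, of the other coding promoters. The shares were 7.5% and 8.75% in ESC-ΔZF1 and 8.75% and 6.25% in ESC-WT, beside 7.15% and 7.85%, and 6.46% and 4.26%, of the others. Podxl_pA had 2.5% and 15.0%, beside 2.59% and 10.4%, Grb10_pA 0% and 2.5%, beside 3.77% and 6.22%, and E14 1.25% and 11.2%, beside 4.27% and 8.11%. The difference from other coding promoters averaged 4.49 ± 7.77 percentage points (SD, n = 14), and this SD holds differences between groups as well as between replicates. RP promoters exceeded the others in 8 of 8 rescue libraries and in 2 of 6 libraries of the Podxl_pA, Grb10_pA and E14 lines. The NPC shares moved with list length, with 30516 and 34104 peaks in NPC-ΔZF1 and 27798 and 13710 in NPC-WT. With the strongest 13710 peaks of each list the RP shares were 7.5% and 5.0% in NPC-ΔZF1 and 2.5% and 17.5% in NPC-WT, so that the difference of 23.1 percentage points became −3.75 (15.1 and −0.837 at other coding promoters). The difference of 15.0 between NPC-WT and ESC-WT likewise became −1.88 with 8169 peaks. In each cut the shortest list, NPC-WT replicate 2 or ESC-WT replicate 2, was left whole and had the highest RP share. The sign of each difference rests on that library. NPC-WT replicate 1 had 2.5%, below both NPC-ΔZF1 libraries. With 8169 peaks the RP shares were 1.25% and 2.5% in NPC-WT and 1.25% and 6.25% in ESC-WT. In the rescue libraries the median percentile of the RP peaks in the Smc3 lists was 6.70 to 23.5, near the weak end of each list, beside 17.3 to 33.0 for Smc3 peaks at other coding promoters.

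**Figure D5:**
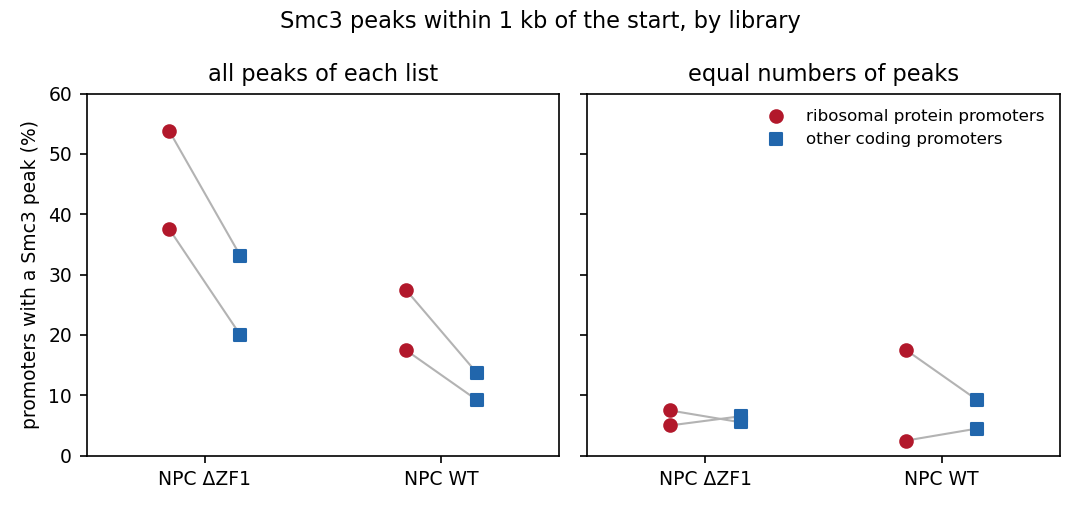
Percentage of promoters with an Smc3 peak (vertical axis) in the NPC-ΔZF1 and NPC-WT libraries (n = 2 each), for RP promoters (red circles) and other coding promoters (blue squares), with all peaks of each list (left) and with the strongest 13710 peaks of each list (right). The NPC-ΔZF1 values for RP promoters are 37.5% and 53.8% on the left and 7.5% and 5.0% on the right. NPC-WT replicate 2 holds 13710 peaks and is the same in both panels.

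By single promoter, 11 RP promoters were called for Smc3 in both NPC-ΔZF1 and in neither NPC-WT library, beside 5.8% of all coding promoters that switched. They were Rpl5, Rpl13a, Rps26, Rpl7, Rpl15, Rpl37a, Rps27a, Rpl34, Rpl8, Rpl7a and Rps23, and the folds in NPC-ΔZF1 were low, at 2.84 and 3.54 for Rpl5 and 3.87 and 5.58 for Rpl13a. At equal peak numbers 1 RP promoter switched (1.25%, beside 0.535% of the other coding promoters), and at a q-value threshold of 1e-05 there were 3 (3.75%, beside 4.05%). Without NPC-ΔZF1 replicate 1 the number was 22 (27.5%, beside 18.5%), and without NPC-WT replicates 1 and 2 it was 18 and 17 (22.5% and 21.2%, beside 10.7% and 7.47%). In ESCs 3 RP promoters switched for Smc3 (0.725%). Rpl10a (folds 4.61 and 5.00) and Rplp0 (5.53 and 5.57) were called in both ESC-ΔZF1 and neither ESC-WT library, and Rpl29 in neither ESC-ΔZF1 and both ESC-WT libraries (3.38 and 2.92). Between the cell types, 4 of 80 RP promoters were called for Smc3 in both NPC-WT and neither ESC-WT library, beside 2.3%, among them Rpl10a, Rps20 and Rpl12, and without NPC-WT replicates 1 and 2 the number was 9 and 17 (11.2% and 21.2%, beside 4.77% and 7.57% of the other coding promoters). In ΔZF1 cells 18 were called in both NPC and neither ESC library, beside 9.86%, and the leading 10 by CTCF percentile were Rpl5, Rpl38, Rpl11, Rps20, Rpl13a, Rps26, Rpl7, Rpl15, Rpl37a and Rpl14. No RP promoter switched for Smc3 between Podxl_pA and E14 (0.324%), and 1 did between Grb10_pA and E14 (0.515%).

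Among the promoters with many Smc3 calls were Rpl36 and Rps20, in 8 of 14 libraries, Rpl10a in 7 and Rpl11 in 6, and Rplp0, Rpl3 and Rpl29 in 5. Rpl36 had Smc3 folds of 8.35 and 6.62 in NPC-ΔZF1 and 7.30 and 5.59 in NPC-WT, 4.35 and no call in ESC-ΔZF1 and 6.18 and 3.82 in ESC-WT, and 4.73 in Podxl_pA replicate 2. The ΔZF1 and WT folds overlapped in both cell types, as did those of NPC-WT and ESC-WT. Rplp0, with the strongest CTCF peak, had Smc3 folds of 7.94 and 6.87 in NPC-ΔZF1 and 5.28 and no call in NPC-WT, and no Smc3 peak in ESC-WT, Podxl_pA, Grb10_pA or E14.

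Recurrent CTCF peaks at RP promoters carried fewer cohesin calls than recurrent CTCF peaks at other coding promoters. Any Smc3 library called 13 of the 15 (86.7%) and 97.6% of the 1201 others, the exceptions being Rps29 and Rpl23a. Both NPC-ΔZF1 Smc3 libraries called 60% and 89.1%, and both NPC-WT libraries 33.3% and 64.8%. The median number of Smc3 libraries was 3 and 10, and any Rad21 library called 13.3% and 43.9%. The CTCF peaks of these RP promoters were also weaker, with a median mean percentile of 67.3 against 76.1, and the part of this in the cohesin counts was not tested. Where CTCF was never called the order was the other way, with an Smc3 peak in any library at 13 of 27 RP promoters (48.1%) and at 8.58% of the other never-called coding promoters. A neighbouring coding start lay within 1 kb at 25.9% and 7.79% of these promoters, and its part was not tested. Smc3 calls were not particular to RP promoters. Their median share per library was 8.75%, beside 10.9% for mitochondrial RP promoters, 18.4% for promoters of highly expressed genes outside the ribosome and 7.50% for other coding promoters. Another coding gene began within 1 kb of the start at 15 RP promoters (18.8%) and at 12.6% of the other coding promoters, and a peak between such starts was counted for both genes.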

How the data were processed

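The series held 54 samples, of which 44 had a peak list and were used. The 10 input samples had no file used here. The authors aligned reads to mm10 with Bowtie2, removed low-quality alignments, duplicates and blacklisted regions (SAMtools, Picard, bedtools), and called peaks per library with MACS2 in paired-end mode at a q threshold of 0.01 (input chromatin was kept as a control, but the stated MACS2 parameters name no control file, and versions are not given in the sources used here). The deposited lists give the fold enrichment, a ratio of pileup to background, the −log10 p- and q-values and the summit, all by the authors, and a score derived from q that was not used. Read counts per region were not used here, and a rank test replaced the count test of the study.

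Calls were made with Python 3.11.15 and pandas 2.3.3 for all coding genes of GENCODE M21. Fold and −log10 p gave whole fragment numbers for 99.9% to 100% of peaks with −log10 p up to 60 (tolerance 0.002). limma 3.58.1 (R 4.3.3) was fitted to normal scores over all shared promoters, two-sided, with Benjamini-Hochberg adjustment at 0.05. It was also run on simulated data with independent noise, which lacked the shared deviations of same-numbered libraries described next. Same-numbered libraries deviated together from their group means (correlations 0.308 to 0.674 in ESCs, 0.334 to 0.666 in NPCs and 0.188 to 0.463 between cell types). For ΔZF1 replicate 1, however, a differently numbered WT library correlated more, in ESCs (0.394 against 0.308) and in NPCs (0.521 against 0.334). The numbers, taken from the sample titles, defined the same-numbered pairs and the replicate block. The limma results and SDs given here ignore this pairing unless the block is named. The blocked counts are printed where they differ. Named genes were those with the most calling libraries, the switched promoters (up to 10 a comparison), those passing limma or else the 3 smallest p-values, the largest changes in calls (up to 5 a direction), the most cohesin calls, the special family members, and the first 5 by symbol of those never called. The motif search and the alternatives (500 bp window, any transcript start, q of 1e-05, equal peak numbers, quantile normalization, depth classes, and leaving out libraries) used the same calls. Some members are counted but not reported by name here. The members and gene lists were chosen with earlier results of these data known.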

Additional observations from a re-analysis of the deposited data

Results flagged for a closer look

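Within groups of 4 libraries, the following values stood apart from the other 3 libraries by Dixon's criterion at 95%, which chance meets in about 1 in 20 groups. It was met in 2 of 16 library measures and 6 of 42 groups of percentiles of a recurrent member reported by name. ESC-ΔZF1 replicate 1 called 50.0% of RP promoters, against 20.0% to 25.0% in the other ESC-ΔZF1 libraries, and held 45941 peaks, against 15779 to 17092. In the same library Rpl36a stood at the 93.1 percentile, against 48.5 to 55.0. Rpl3 in ESC-ΔZF1 replicate 3 stood at 51.9, against 93.1 to 98.1. In NPC-WT replicate 3, Rpl3 stood at 71.7, against 93.7 to 94.8, and Rpl36 at 37.7, against 82.5 to 89.9. Rpl23a in ESC-WT replicate 1 stood at 77.1, against 10.3 to 16.2, and Rpl38 in ESC-WT replicate 4 at 57.3, against 81.4 to 85.5. The part of depth or list length in these values was not tested.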

How the results depend on the processing

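Alternatives restricted to replicates 1, 2 and 3, and all alternatives for the recurrent and retained promoters and for the Smc3 comparisons between groups, were chosen after seeing the data, while those for the difference between RP and other promoters in Smc3 calls were planned. No limma difference of the RP genes with the smallest p-values changed direction. The ΔZF1 against WT differences in CTCF calls and the Smc3 differences between groups did change sign in some settings. The CTCF differences in called RP promoters stayed within the replicate SD in all settings, with ranges without 1 library of −5.73 to 4.48 (ΔZF1 against WT, ESCs), −10.2 to 6.88 (NPCs) and 0.104 to 6.04 (NPC-WT against ESC-WT). Switched RP promoters (called in all libraries of one group only), 0 in NPC-ΔZF1 against NPC-WT, became 6 in replicates 1 and 4, 5 in replicates 2 and 3, 2 in replicates 1 to 3 and 0 to 2 without 1 library (1 without NPC-WT replicate 2, 2 without NPC-ΔZF1 replicate 4), where 860, 913, 159 and 7 to 89 of the 21858 other coding promoters switched. In NPC-WT against ESC-WT they became 1 and 2 in the 2 depth classes (604 and 400 others). At equal peak numbers the Smc3 differences became −3.75 and −1.88 percentage points, signs that rested on the shortest list of each comparison, which was left whole. The switched Smc3 promoters became 1 (NPC-ΔZF1 against NPC-WT) and 0 (NPC-WT against ESC-WT). They were 3 and 2 at q of 1e-05, and 14 to 22 and 5 to 17 without 1 library (1633 to 4050 and 612 to 1654 others). Recurrent RP promoters numbered 6 at equal peak numbers. The limma count in ESCs, 1, became 0 with the 500 bp window, 2 with any transcript start, 4 with the replicate block, 6 with quantile normalization, 0 in either depth class and in replicates 1 to 3, and 1 to 37 without 1 library (37 without ESC-ΔZF1 replicate 2). The NPC-WT against ESC-WT count, 52, became 31 with any transcript start, 112 with the replicate block, 118 with quantile normalization, 0 in either depth class, 10 in replicates 1 to 3, and 0 to 92 without 1 library. Rpl10a no longer passed in 11 of 16 settings. The block changed no RP call. The cause of these shifts was not tested.
Lists without counts limit the precision, and a missing peak is a value below the authors' threshold at that library's depth, not absence of binding.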

Other observations

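Other gene groups linked to the ribosome were examined in the same 22 CTCF libraries as a description. Of 78 promoters of mitochondrial ribosomal proteins, which build the organelle's own ribosome, 7 had a CTCF peak in at least 19 libraries (8.97%) and 28 in none (35.9%), with a median of 1 library. Mrps2 and Mrpl34 were called in 22 libraries, Mrps33, Mrpl23, Mrps16 and Mrpl39 in 21 and Mrps12 in 19. Among 8 genes related to the RP family but outside the symbol rule, Rps3a1, a small-subunit protein, was called in 20 libraries and Rpl7l1 in 18. None of 14 translation factor genes with TOP messages and none of 14 ribosome biogenesis genes reached 19 libraries, with 15 for Eif3f, an initiation factor subunit, and 15 for Fbl, the nucleolar methyltransferase fibrillarin. Of 19 promoters of highly expressed genes outside the ribosome, 1 did, that of Actb, the gene for cytoplasmic actin, in 22 libraries. Of these 19, 6 were called in none (31.6%), near the share of RP promoters. The median percentage called per library was 26.9 for RP promoters, 16.03 for mitochondrial RP, 14.3 for TOP factor, 7.14 for biogenesis and 15.8 for highly expressed promoters, and 12.9 for other coding promoters.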
